A study of Mus musculus with 16 samples.

Results

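The genes described here encode the proteins of the cytosolic ribosome in mouse liver. They were chosen by gene symbol: every gene of the array's probe table named as a large subunit (Rpl) or small subunit (Rps) protein, with the stalk proteins and Rpsa, and without kinases, pseudogenes and mitochondrial ribosomal proteins. The table names 51 such genes on 68 probes, of the 84 protein-coding genes of such symbols in RefSeq. A total of 46 genes, 30 of the large subunit and stalk and 16 of the small subunit, had a probe that passed the detection threshold (p under 0.01) on each array of 1 or more groups, among 8140 genes tested in all. Rpl14, Rpl17, Rpl21, Rpl39l and Rpsa did not meet this and are not described further.

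The ribosome is built in the nucleolus from ribosomal RNA and one copy of most of these proteins, joins messenger RNA in the cytoplasm and makes all the protein a liver cell needs and secretes. Ribosomal protein mRNAs are long-lived and abundant, and most begin with a run of pyrimidines, the 5' terminal oligopyrimidine (TOP) motif, through which the growth kinase mTORC1 sets how often they are translated. Because TOP control acts on translation, it need not show in an mRNA level.

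Liver RNA was hybridised to Illumina mouse Ref-8 arrays, 16 in all, in 8 groups of 2. The groups were wild type, FXR-/- (lacking Nr1h4, the nuclear receptor for bile acids), SHP-/- (lacking Nr0b2, a repressor induced by FXR) and the FXR/SHP double knockout, each at 3 and 5 weeks of age. All mice were male, on a C57BL/6 background and fed normal chow. Wild-type mice were purchased, while the knockouts were congenic lines and the double knockout was bred from the single ones, so origin of the mice and genotype cannot be told apart. All 3-week arrays lay on 1 slide and all 5-week arrays on another, so age and slide cannot be told apart. The labels do not say that the 2 arrays of a group came from separate animals, and p-values therefore measure only the spread between these arrays. In whole liver, fewer cells of a type and less RNA per cell cannot be told apart.

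Signals were background-corrected, quantile-normalised and put on a log2 scale, the brightest detected probe standing for its gene. A gene rose or fell where limma's moderated test gave an adjusted p under 0.05 (Benjamini-Hochberg over all 8140 genes). Between 39.0% and 42.4% of probes were detected per array. The Nr1h4 probe read 10.55 to 11.18 on the arrays with the gene and 4.23 to 6.17 on those labelled as lacking it. The 7 measured hepatocyte genes averaged 11.18 to 11.56 per array, although the Alb probe was not detected on the FXR-/- arrays at 5 weeks. Genes of other tissues differed between groups. The mean of 12 exocrine pancreas genes was 7.52 on both wild-type arrays at 3 weeks, 8.92 and 8.94 in SHP-/- at 5 weeks, 6.75 and 6.79 in FXR-/- at 5 weeks and 5.52 to 5.87 elsewhere. The 11 skeletal muscle genes averaged between 4.53 and 8.85. In the double knockout, the second array of each age had weak biotin labelling controls (1850.6 and 903.01, against 2834.2 to 3487.3 on the others).

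The gene starts of 6 of the members described below are shown to let the pyrimidine run be seen. Each line covers 30 bases before and 30 from the start of the gene in RefSeq (GRCm38.p6), read 5' to 3' on the gene's own strand, with the longest run of C or T in capitals. Rpl13 lies at chr8:123102320-123102379 (plus strand), Rpl13a at chr7:45128716-45128775 (minus), Rpl35 at chr2:39005102-39005161 (minus), Rpl27a at chr7:109519165-109519224 (plus), Rps9 at chr7:3704011-3704070 (plus) and Rpl3l at chr17:24727796-24727855 (plus).
Rpl13: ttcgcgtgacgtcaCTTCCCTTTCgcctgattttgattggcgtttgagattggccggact
Rpl13a: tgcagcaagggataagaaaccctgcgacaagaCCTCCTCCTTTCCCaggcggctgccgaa
Rpl35: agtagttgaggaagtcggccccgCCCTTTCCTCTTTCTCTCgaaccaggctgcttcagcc
Rpl27a: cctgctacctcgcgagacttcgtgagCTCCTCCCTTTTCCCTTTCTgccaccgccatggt
Rps9: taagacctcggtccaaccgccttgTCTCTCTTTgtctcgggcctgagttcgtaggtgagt
Rpl3l: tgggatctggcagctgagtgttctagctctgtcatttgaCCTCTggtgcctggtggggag
The run is 20 bases in Rpl27a, 18 in Rpl35, 14 in Rpl13a, 10 in Rpl13, 9 in Rps9 and 5 in Rpl3l. It begins before the annotated start in Rpl13 (-16), Rpl35 (-7), Rps9 (-6) and Rpl27a (-4). In Rpl13 it also ends before that start, and so lies outside the transcript as annotated. Among members described below but not printed here, the run was 17 bases in Rpl11, 11 in Rpl28 and 10 in Rpl22l1. It was 7 in Rps21, 6 in Rps3 and 5 in Rpl22, Rps19, Rps28 and Rpl7l1. A start was found for 38 of the 46 members, the first listed one being used for the 9 with several. A run of 8 or more occurred on the gene's strand in 19 of these 38 (50%), against 22.8% of 27025 genes of the table. The share depends on the window: with 20 bases before and 40 from the start, the window tried first, it was 25 of 38 (65.8%) against 21.8%. The narrower reach into the transcript was adopted afterwards to limit the printed bases, and a run of these letters is not proof of a TOP motif.

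Most ribosomal protein genes moved little. The range of a gene's 8 group means had a median of 0.36 on the log2 scale over the 46 members, against 0.48 over all tested genes. It exceeded 1 in 1 member, Rpl3l, against 12.6% of all genes, and stayed under 0.5 in 35, against 4260 of 8140 genes. The median SD between duplicates was also smaller for members, at 0.06 against 0.08 for all tested genes. These ranges are of each gene's brightest probe, and dimmer probes could move more. A dimmer Rps9 probe, ILMN_1214918, fell by 1.26 in FXR-/- at 3 weeks. By the brightest probe the steadiest were Rps27 (0.13), Rpl11 (0.16), an inhibitor of Mdm2 when free of the ribosome, and Rpl23 (0.17). The second Rpl23 probe read 8.62 and 7.85 in the double knockout at 3 weeks and 8.79 and 8.72 in FXR-/- at 5 weeks. The widest were Rpl3l (3.87, to a lowest group in which its probe was not detected, so that its true range is not measured), Rpl13a (0.72) and Rpl27a (0.72).

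**Figure D1:**
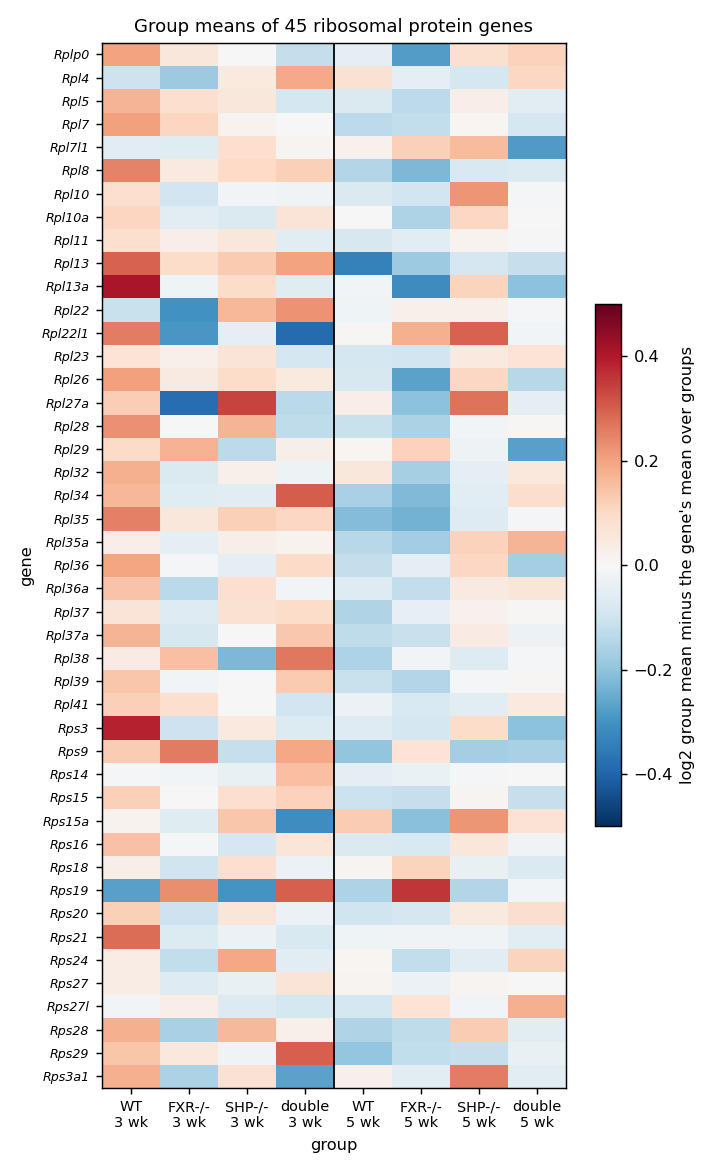
Group means of 45 ribosomal protein genes (rows, without Rpl3l) in the 8 groups (columns), each as the log2 difference from that gene's mean over groups. The wild-type column at 3 weeks is mostly red and the wild-type and FXR-/- columns at 5 weeks are mostly blue.

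Within that narrow range the groups were ordered. Wild-type liver at 3 weeks was the highest of the 8 groups for 23 of the 46 members (50%), against 11.1% of all tested genes, and the lowest for 0. FXR-/- liver at 5 weeks was the lowest for 16 members (34.8%), against 11% of all genes. The median deviation of the 45 members other than Rpl3l from their own means was 0.12 on both wild-type arrays at 3 weeks, and -0.12 and -0.09 on the FXR-/- arrays at 5 weeks. The wild-type arrays at 3 weeks were also among those with raised exocrine pancreas genes, as were both SHP-/- arrays at 5 weeks, where the deviations were 0.07 and 0.01, and the FXR-/- arrays at 5 weeks; their part in the result was not tested.

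**Figure D2:**
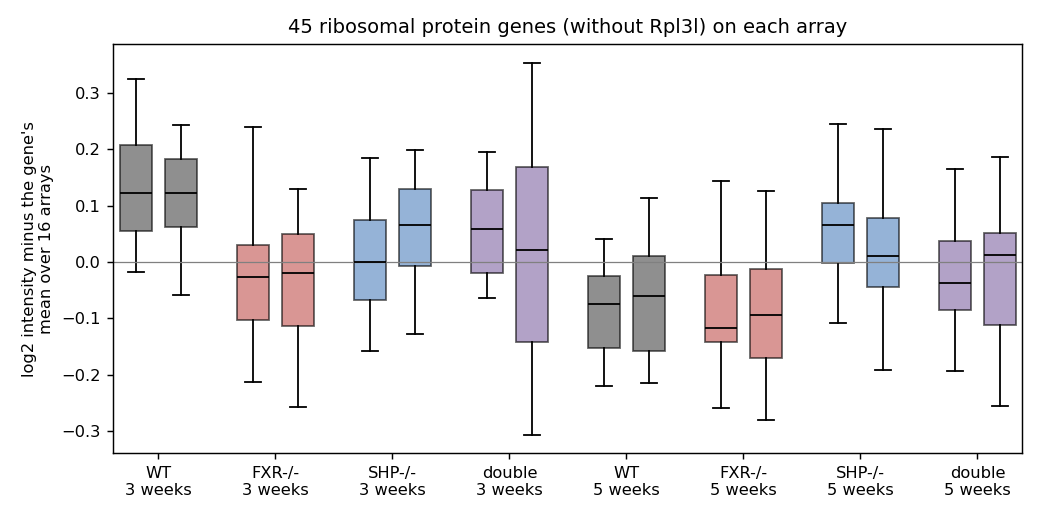
Log2 intensity of 45 ribosomal protein genes (without Rpl3l) minus each gene's mean over 16 arrays, 1 box per array: line, median; box, interquartile range; whiskers, 5th to 95th percentile. Both wild-type arrays at 3 weeks have medians of 0.12, above all others.

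Between 3 and 5 weeks, ribosomal protein mRNAs fell in wild-type liver. Of the 46 members 19 fell and 1 rose, a share called of 43.5% against 16% of all genes, of which 8.54% fell and 7.47% rose. Of the members 40 of 46 lay below 0. The median log2 difference was -0.21 for members and -0.01 for all genes, -0.03 for 714 bright genes, and -0.09 for 68 mitochondrial ribosomal protein genes, of which 2 fell. Other gene lists moved in the same comparison. Of 15 cell cycle genes 12 fell (median -0.90), of 8 macrophage and neutrophil genes 5 fell (median -0.57, 8 below 0), of 12 exocrine pancreas genes 12 fell (median -1.69) and of 11 skeletal muscle genes 10 rose (median 4.23). Their part in the result was not tested. Of large subunit and stalk genes 12 of 30 fell, and of small subunit genes 7 of 16. The number of calls rests on few arrays: fewer members passed when any 1 of the 4 wild-type arrays was left out. The shares of all genes called in those fits are not given here.

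Rpl13, a large subunit protein, had the largest fall. Its log2 intensity was 12.50 and 12.31 in wild type at 3 weeks and 11.73 and 11.82 at 5 weeks. The 2 ages did not overlap, and the fall was -0.63 ± 0.09 (SE, limma, adjusted p = 3.22e-05). Rpl35, another large subunit protein, read 11.94 and 11.79 at 3 weeks and 11.41 and 11.39 at 5 weeks (-0.47 ± 0.10, adjusted p = 0.00305 by limma). Rps3, a small subunit protein at the mRNA entry site that also has DNA repair activity, read 11.73 and 11.52 at 3 weeks and 11.28 and 11.06 at 5 weeks (-0.45 ± 0.11, adjusted p = 0.00747 by limma). Its second probe gave -0.22 (adjusted p = 0.331), and the call was lost with the mean of both (-0.34, adjusted p = 0.0641). Without the first 3-week array Rpl35 (-0.39, adjusted p = 0.0568) and Rps3 (-0.34, adjusted p = 0.123) did not pass, nor did Rps3 without the second 5-week array (-0.34, adjusted p = 0.124), while Rpl13 passed in all 10 alternative settings. Rpl13a (-0.42), Rpl8 (-0.39) and Rpl28 (-0.34) fell too.

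In the knockouts the age comparison gave fewer calls. In FXR-/- 7 fell and 1 rose (21.6% of all genes called, 10.2% up and 11.4% down). In SHP-/- 0 fell and 1, Rpl3l, rose (12.7% of all, 5.74% up and 6.93% down). In the double knockout 6 fell and 1 rose (17.9% of all, 9.29% up and 8.57% down). The member medians were -0.08, 0.00 and -0.08. These comparisons were added after the wild-type result was seen. Of the tests of the age difference itself, SHP-/- against wild type gave 5 members that rose and 0 that fell (7.74% of all genes called, 4.21% up and 3.53% down), with a median of 0.23. They were Rpl36 (0.47), Rpl13a (0.44), Rpl13 (0.42), Rpl10 (0.39) and Rps16 (0.36), but fewer passed when any 1 of the 8 arrays was left out. The shares of all genes called in those fits are not given here. For Rpl13a in the SHP-/- test the second probe gave 0.26 (adjusted p = 0.353, limma on single probes). Its call was lost with the mean of its probes (0.35, adjusted p = 0.0751 by limma). The FXR-/- test called 1 member, Rpl3l (9.47% of all genes, 4.47% up and 5% down). The double-knockout test called Rpl28 and Rpl3l (12.3% of all, 6.77% up and 5.55% down).

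**Figure D3:**
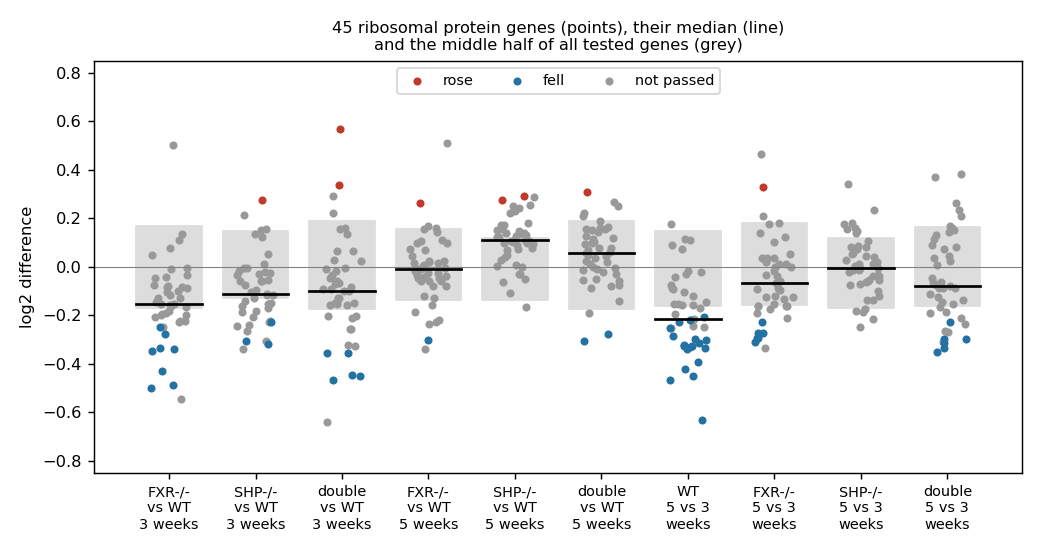
Log2 differences of 45 ribosomal protein genes (points, coloured by call), with their median (line) and the interquartile range of all tested genes (grey), in 6 comparisons with wild type and 4 of 5 against 3 weeks. The members' median is lowest in the wild-type age comparison, at -0.22 without Rpl3l.

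At 3 weeks, each knockout was compared with wild type of the same age. These 3 comparisons share the wild-type arrays, which were the highest for 23 of the members, so they are not independent of each other. In FXR-/- liver 8 members fell and 1 rose (22.7% of all genes called, 11.6% up and 11.1% down), with a median of -0.15 and 40 of 46 below 0. In SHP-/- liver 3 fell and 2 rose (11.9% of all, 6.19% up and 5.68% down), with a median of -0.11. In the double knockout 5 fell and 3 rose (25.2% of all, 13.5% up and 11.8% down), with a median of -0.10. The shares of members called, 19.6%, 10.9% and 17.4%, were near or below the shares of all genes. Median centring turned this round: 34.8%, 34.8% and 28.3% of members were then called, against 21%, 11.7% and 23.7% of all genes. Of the called members 15, 15 and 11 were lower. That centring also put the median of all genes lower, at -0.04, -0.08 and -0.07, against -0.01, 0.01 and 0.00 without it. For falls alone, without that centring, the FXR-/- share was 17.4% against 11.1%. Of 15 cell cycle genes 13 rose in FXR-/-, 9 fell in SHP-/- and 9 rose in the double knockout, and of 12 exocrine pancreas genes 12, 12 and 11 fell; their part in these results was not tested.

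Rpl13a, a large subunit protein known outside the ribosome for silencing inflammatory mRNAs, fell in all 3 knockouts at 3 weeks. It read 9.37 and 9.49 in wild type, 8.96 and 9.03 in FXR-/-, 9.06 and 9.16 in SHP-/-, and, for the double knockout, 9.01 and 8.91, with no overlap. The differences were -0.43 (adjusted p = 0.000454), -0.32 (0.0119) and -0.47 (0.000202) by limma. At 5 weeks it fell in FXR-/- (-0.30, adjusted p = 0.0114 by limma) and did not pass in the others. The FXR-/- and double-knockout calls at 3 weeks held in all 11 alternative settings. The SHP-/- call was lost when the fit held only arrays of that age (adjusted p = 0.0571), without the first SHP-/- array (0.129) and without the second wild-type array (0.139), and the 5-week call without either wild-type array (0.0755 and 0.0591) or the second FXR-/- array (0.114). A second probe gave -0.55, -0.31 and -0.67 at 3 weeks, of which the SHP-/- value did not pass (adjusted p = 0.0696 by limma on 10998 probes). At 5 weeks the 2 probes differed in which calls passed. The second gave -0.32 in FXR-/- (adjusted p = 0.0504), -0.05 in SHP-/- (0.842) and -0.51 in the double knockout (0.00156) by the same fit.

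Rps21, a small subunit protein, fell in the same 3 comparisons, from 12.67 and 12.60 in wild type to between 12.23 and 12.34 on the 6 knockout arrays. Its differences were -0.35, -0.31 and -0.36 (adjusted p = 0.00577, 0.0246 and 0.00478 by limma). Rpl27a read 9.82 and 9.81 in wild type, 9.29 and 9.33 in FXR-/-, 9.99 and 10.07 in SHP-/- and 9.40 and 9.71 in the double knockout. It fell in FXR-/- (-0.50, adjusted p = 0.000522 by limma), a call lost when its probes were averaged (-0.19, adjusted p = 0.249). The second Rpl27a probe did not follow, at 0.13 in FXR-/- (adjusted p = 0.701) and 0.63 in the double knockout (adjusted p = 0.0223), where the first gave -0.26 (0.0532). Rps3 fell in FXR-/- (-0.49) and the double knockout (-0.45). Its second probe gave -0.24 (adjusted p = 0.25) and -0.57 (adjusted p = 0.0056), and the mean of both passed in each (-0.37 and -0.51). Without the first wild-type array, Rps3 (adjusted p = 0.0635 and 0.0875) and Rps21 (0.0651, 0.176 and 0.055) did not pass in any of these comparisons, and the SHP-/- call of Rps21 was also lost without each of the other 3 arrays and with no detection filter (adjusted p from 0.0588 to 0.124). Rps3 in the double knockout was also lost without its second array (0.0766), and Rps21 in FXR-/- without the first FXR-/- array (0.0753). In FXR-/- Rps28, Rpl36a, Rpl37a and Rps3a1 also fell, with differences from -0.25 to -0.34, and Rps28 did not pass without the first array of either group (adjusted p = 0.0909 and 0.0721).

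Rpl22, a large subunit protein that is dispensable in most cells and needed for T-cell development in mice, went the other way. It read 8.60 and 8.63 in wild type, 8.43 and 8.41 in FXR-/-, 8.86 and 8.92 in SHP-/- and 8.88 and 9.03 in the double knockout. The rise over wild type by limma was 0.34 in the double knockout (adjusted p = 0.00639) and 0.28 in SHP-/- (adjusted p = 0.0393). The SHP-/- call was lost with median centring (0.17, adjusted p = 0.224), with no detection filter (0.0621), with only the 3-week arrays fitted (0.0965) and without any 1 of the 4 arrays (0.102 to 0.225). The double-knockout call was lost without the first wild-type array (0.0527) or the second double-knockout array (0.0501). The double knockout exceeded FXR-/- by 0.53 (adjusted p = 0.000221 by limma), a call kept in all 11 alternatives. Its paralog Rpl22l1, which can take its place, was dim at 4.82 to 5.97 and did not pass in any comparison with wild type. Rps19, the gene mutated in Diamond-Blackfan anaemia, rose in the double knockout (0.57, adjusted p = 0.029 by limma), from group means of 4.66 to 5.22. The Rps19 probe was detected on 1 of the 2 wild-type arrays, and the call was lost with median centring, with no detection filter, with only the 3-week arrays fitted (adjusted p = 0.0564, 0.0672 and 0.0535 by limma), without the second wild-type array (0.32, adjusted p = 0.34) and without the second double-knockout array (0.47, adjusted p = 0.162). Of 4 measured erythroid genes in this comparison 1 rose, Hbb-b2 (4.60), and 1 fell, Alas2 (-0.52), with a median of 0.10; their part in the result was not tested.

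At 5 weeks fewer members passed. In FXR-/- 2 fell and 1 rose (16.8% of all genes called, 8.77% up and 8.05% down), with a median of -0.01. In SHP-/- 3 rose and 0 fell (8.89% of all, 4.94% up and 3.96% down), with a median of 0.11 and 40 of 46 above 0, against 3897 of 8140 genes. Besides Rpl3l these were Rpl10 (0.29, adjusted p = 0.0329), which is added late in large subunit assembly, and Rps28 (0.28, adjusted p = 0.0478, limma). In the double knockout 2 rose and 2 fell (24.4% of all, 13.9% up and 10.5% down), with a median of 0.06: Rpl35a rose by 0.31, and Rpl7l1, a relative of Rpl7 known as an assembly factor, and Rpl29 changed by -0.31 and -0.28. Rpl7l1 read 8.60 and 8.58 in wild type and 8.27 and 8.29 in the double knockout, below both single knockouts as well (-0.41 against FXR-/- and -0.44 against SHP-/-). Its second probe gave -0.15 against wild type (adjusted p = 0.523), -0.43 against FXR-/- (0.0636) and -0.15 against SHP-/- (0.56). With the mean of both probes the calls against wild type (-0.23, adjusted p = 0.124) and SHP-/- (-0.30, adjusted p = 0.0524) were lost, and with median centring those against wild type (-0.06, adjusted p = 0.703) and FXR-/- (-0.11, adjusted p = 0.418), the last also without the first FXR-/- array (0.0653). Leaving out any 1 of the 4 arrays ended the calls of Rpl7l1 and Rpl35a against wild type, and of Rps28 in SHP-/-, and median centring ended that of Rpl29 (-0.03, adjusted p = 0.832), as did leaving out either wild-type array (0.0944 and 0.101) or the second double-knockout array (0.19). With no detection filter Rpl10 and Rps28 did not pass (0.0727 and 0.0981), nor did Rps28 with a replicate block (0.0537). Rpl10 did not pass without either SHP-/- array (adjusted p = 0.126 and 0.181) or the first wild-type array (0.19, adjusted p = 0.342). Of the 46 members 28 passed in none of the 6 comparisons with wild type. The share of all genes that did so is not given here, so this count has no background beside it.

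Between the double and single knockouts, the double knockout differed from FXR-/- at 3 weeks in 4 members, all higher (15.2% of all genes called, 7.96% up and 7.29% down). It differed from SHP-/- in 10, of which 6 were higher and 4 lower (24.8% of all, 13% up and 11.8% down). At 5 weeks it differed from FXR-/- in 5, of which 3 were higher (19.5% of all, 11% up and 8.5% down), and from SHP-/- in 6, all lower (21.8% of all, 12.4% up and 9.36% down). A departure from additive single-knockout effects was called in 4 members at 3 weeks, all above 0 (11.1% of all, 5.72% up and 5.36% down), among them Rpl34 (0.58) and Rps29 (0.40), and in 2 at 5 weeks (13.1% of all, 7.56% up and 5.5% down). The Rps29 call was lost with no detection filter (adjusted p = 0.0766), with only the 3-week arrays fitted (0.095) and without any 1 of 5 of the 8 arrays (0.0604 to 0.149, limma). The difference between duplicates was put in units of bead standard errors. Its SD over members was 1.91 in the double knockout at 3 weeks, against 1.09 to 1.35 in other groups. Over all probes the SD was also highest in the double knockout at 3 weeks, at 1.532 against 1.236 to 1.345. More members passed against wild type, FXR-/- and SHP-/- without its first array, which leaves the weakly labelled one, than without its second. The shares of all genes called in those fits are not given here, so the change cannot be set against them.

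Rpl3l, the form of Rpl3 found in striated muscle, stood apart from the other 45. It read 4.38 and 4.46 in wild type, 6.40 and 6.28 in FXR-/-, 4.92 and 4.89 in SHP-/- and 7.43 and 7.60 with both genes deleted, all at 3 weeks. The 5-week values were 7.41 and 7.49, 4.45 and 4.34, 8.21 and 8.33, and 8.14 and 8.10 in the same order. It was not detected in wild type at 3 weeks or FXR-/- at 5 weeks, so the change was at least 2.73-fold higher in FXR-/- and 6.16-fold higher in the double knockout at 3 weeks, and at least 5.73-fold lower in FXR-/- at 5 weeks (adjusted p = 1.7e-10, 1.43e-13 and 2.04e-13 by limma). The bound compares the brighter mean with, on each dimmer array, the higher of Rpl3l's own signal and the lowest signal among detected probes.

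The skeletal muscle genes moved with Rpl3l. The mean of 11 of them was 4.53 and 4.62 in wild type at 3 weeks and 4.81 and 4.78 in FXR-/- at 5 weeks, where 8 of the 11 were not detected, including Ckm, Pvalb and Actn3. It was 8.85 and 8.81 in SHP-/- at 5 weeks, where all 11 were detected and Rpl3l was highest. The order of the 8 groups was the same for Rpl3l and this mean apart from the lowest pair. These values are from liver as labelled, and the part of muscle genes in the Rpl3l values was not tested.

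**Figure D4:**
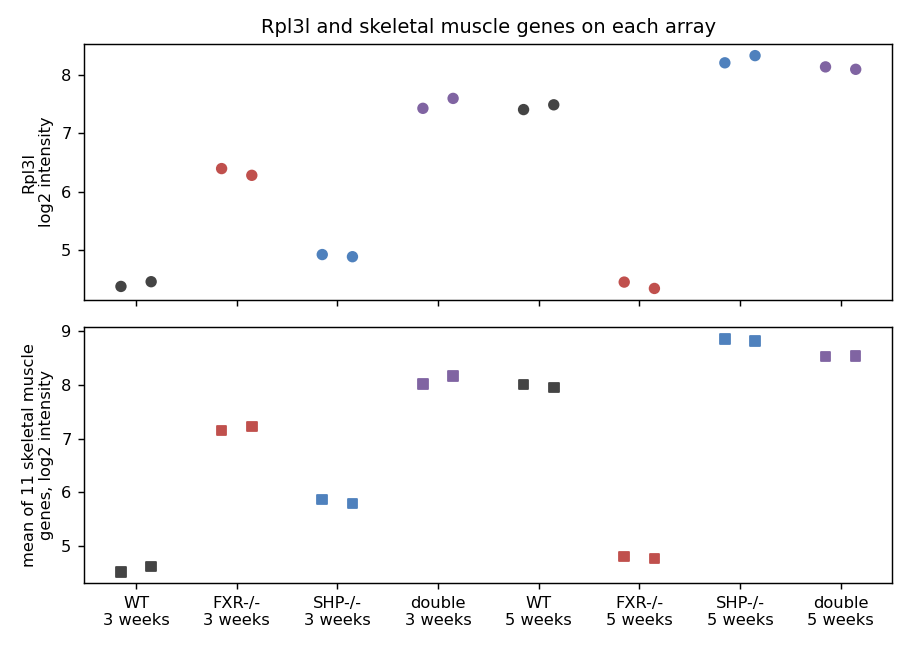
Log2 intensity of Rpl3l (upper panel) and the mean of 11 skeletal muscle genes (lower panel) on each of 16 arrays, 2 per group. Both are lowest in wild type at 3 weeks and FXR-/- at 5 weeks and highest in SHP-/- at 5 weeks.

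Rps9, a small subunit protein, had 5 detected probes that disagreed. In FXR-/- at 3 weeks, ILMN_1214918 fell by 1.26 (adjusted p = 4.27e-06) and ILMN_2643092 by 0.45 (adjusted p = 0.000105), while ILMN_2588053, the brightest, gave 0.13, and ILMN_1377921 and ILMN_2673154 gave 0.00 and 0.02 (limma on 10998 probes). At 5 weeks the first pair fell again, by 0.78 and 0.28, and the brightest rose by 0.26 (adjusted p = 0.0472). The gene-level rise of Rps9 in FXR-/- at 5 weeks therefore follows from the choice of probe, and it was also lost with median centring (adjusted p = 0.105) and without any 1 of the 4 arrays (0.07 to 0.268, limma). Probe sequences were not used here, so the transcripts each probe reads were not compared.

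**Figure D5:**
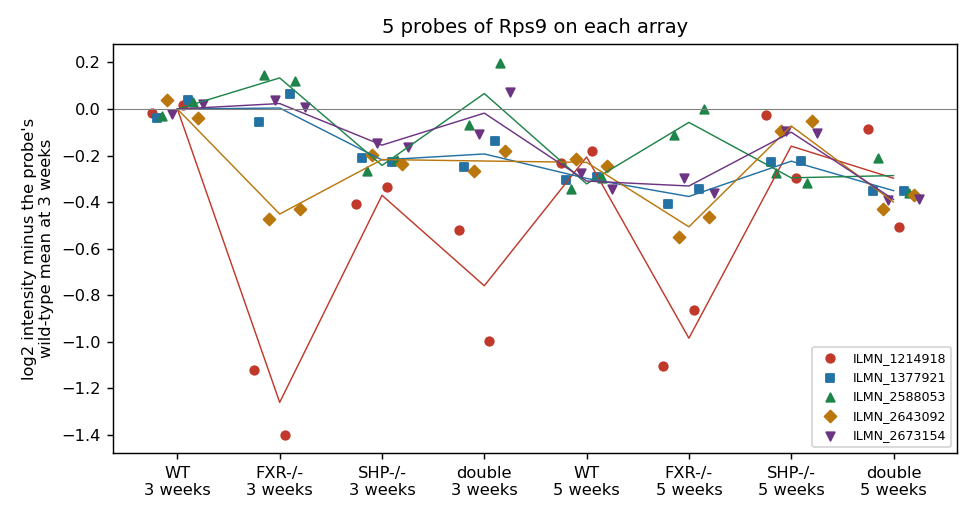
Log2 intensity of 5 Rps9 probes on each array minus that probe's wild-type mean at 3 weeks; lines join group means. ILMN_1214918 lies lowest in FXR-/- at both ages, while ILMN_2588053 stays above the others there.

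Genes that build or regulate ribosomes were set beside the members. Of 35 measured ribosome assembly factors, 5 fell and 1 rose in FXR-/-, 8 fell and 1 rose in SHP-/-, and the 3-week double knockout had 6 falls and 1 rise, with medians of -0.16, -0.17 and -0.19. The shares called were 17.1%, 25.7% and 20%, against 22.7%, 11.9% and 25.2% of all genes. At 5 weeks 8 rose and 2 fell in the double knockout (28.6%, against 24.4% of all genes), among the rises Nop58, a core protein of box C/D ribonucleoproteins (0.69 ± 0.11, adjusted p = 0.000143 by limma). In wild type 7 fell and 0 rose from 3 to 5 weeks (20%, against 16% of all genes, median -0.17). Rrn3, the initiation factor of RNA polymerase I, was the largest fall among 19 polymerase genes, at -0.83 in FXR-/- and -0.86 in SHP-/- at 3 weeks. Of these 19 genes 0 fell and 1 rose in the 3-week double knockout, and likewise in FXR-/- at 5 weeks. These comparisons at 3 weeks share the wild-type arrays. Of 18 other TOP genes 3 fell with age in wild type (median -0.12). Inhibitors of mTORC1 and of its output did not move one way among 10 measured mTORC1 and MYC regulators, of which 1 rose and 2 fell in FXR-/- at 3 weeks, and 1 rose with 3 and 2 falling in the double knockout at 3 and 5 weeks. In SHP-/- at 3 weeks 2 of the 10 rose and 0 fell (20%, against 11.9% of all genes). At 5 weeks 0 rose and 1 fell in SHP-/- and likewise in FXR-/- (10% in each, against 8.89% and 16.8% of all genes). Ddit4, an mTORC1 inhibitor, rose in FXR-/- at 3 weeks (1.14, adjusted p = 6.73e-05 by limma) and with both genes deleted at 3 (0.77) and 5 weeks (0.83). Deptor, another inhibitor, fell in FXR-/- at 3 weeks (-0.30, adjusted p = 0.00612) and in the 5-week double knockout (-0.61, adjusted p = 5.62e-06 by limma). Deptor also fell in SHP-/- at 5 weeks (-0.28, adjusted p = 0.0223 by limma). Eif4ebp1, a translation repressor that mTORC1 switches off, fell at 3 weeks in FXR-/- (-0.43) and the double knockout (-0.39).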

How the data were processed

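The deposited table holds, per the file headers, BeadStudio (BSGX 3.2.3) average bead intensity per probe, not normalised, with a bead standard error and a detection p-value. The submitters' log2 table, deposited with scale and method unstated, matched its own arrays (r 0.99 to 1.00, every column median 6.22) and was an alternative only. The 16 bead-count columns were not used. Intensities were background-corrected and quantile-normalised with neqc (offset 16) in limma 3.58.1 (R 4.3.3). Of 24613 probes, 10998 (44.7%) were detected on both arrays of a group; 20984 probes had 1 symbol, 1 several and 3628 none. One model with 8 group means (8 residual degrees of freedom, trended moderated variance) gave all comparisons. It was tested on simulated data. The number of arrays limits the precision.

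Members and lists were chosen with earlier results of these data known. The rule for naming took up to 5 rises and 5 falls per comparison with wild type and up to 3 in others. It also took paralogs with their partners, stalk proteins, Rpsa, Rps6 and the 3 widest and steadiest members. Not every gene under this rule is described above in each comparison. Only Rplp0 of the stalk was analysed, and Rps6 was not analysed here. Alternatives were no background correction, median centring, the submitters' values, no detection filter, the mean of a gene's probes, arrays of one age, a replicate block and leaving out each array. The age comparisons within knockouts, the single-probe fit, the bright genes, the lists without Rpl3l and the second promoter window were added after seeing the data. Replicate numbers did not pair the arrays: the correlation of same-numbered deviations passed 0.1 in 2 of 28 pairs of groups.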

Additional observations from a re-analysis of the deposited data

Results flagged for a closer look

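The following differ between the ages in their knockout effect by the test of that difference in limma, as log2 effect at 5 weeks minus that at 3 weeks. Rpl3l gave -4.97 (adjusted p = 3.33e-14) for FXR-/-, from 1.92 to -3.05, and -2.43 (adjusted p = 2.17e-09) for the double knockout, from 3.10 to 0.67. Rpl3l was not detected in wild type at 3 weeks or FXR-/- at 5 weeks, so these differences are fitted against a probe at background and their size is not measured. In SHP-/- the difference was 0.47 for Rpl36 (adjusted p = 0.0329), 0.44 for Rpl13a (0.0189) and 0.42 for Rpl13 (0.0428). It was 0.39 for Rpl10 (0.0498) and 0.36 for Rps16 (0.0282). By the brightest probe the SHP-/- effect on each was below 0 at 3 weeks and above 0 at 5 weeks. The second Rpl13a probe gave 0.26 (adjusted p = 0.353, limma on single probes), from -0.31 to -0.05. With the mean of its probes the Rpl13a call was lost (0.35, adjusted p = 0.0751 by limma). Rpl28 gave 0.47 (adjusted p = 0.0104) in the double knockout, from -0.35 to 0.12. All share the wild-type arrays, and age and slide cannot be told apart.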

How the results depend on the processing

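Of 70 named gene and comparison pairs, 22 passed under every setting run and 41 under all that kept both arrays of each group. One reversed: Rps9 in FXR-/- at 5 weeks was -0.18 with the mean of its probes. Centring on the median instead of quantiles gave 16 members called at 3 weeks for FXR-/-, 16 for SHP-/- and 13 for the double knockout. Of these 15, 15 and 11 were lower (21%, 11.7% and 23.7% of all genes called). At 5 weeks it gave 15 for SHP-/- (16.7% of all genes) and 9 for the double knockout (31.9%), all higher. Double knockout against FXR-/- at 5 weeks had 19 (33.1% of all genes), and non-additivity at 3 weeks had 9 (9.79%). The age differences of FXR-/-, SHP-/- and double knockout had 2, 27 and 17 (7.79%, 17.9% and 23% of all genes). SHP-/- with age had 10 (21.7% of members, 21% of all genes). The centring also moved the median of all genes, to -0.04, -0.08 and -0.07 for FXR-/-, SHP-/- and the double knockout at 3 weeks. At 5 weeks it became 0.16 for SHP-/-, 0.16 for the double knockout and 0.20 between double knockout and FXR-/-. It was 0.24 and 0.23 in the SHP-/- and double-knockout age differences, and 0.16 and 0.17 in the age comparisons of those 2 genotypes. With age the double knockout then had 4 members higher and 1 lower (27% of all genes called). Without the detection filter the counts at 3 weeks were 2 in SHP-/- (4.79% of all genes) and 2 for non-additivity (4.39%). At 5 weeks they were 1 in SHP-/- (3.65%) and 3 for double knockout against SHP-/- (9.57%). The SHP-/- age difference had 1 (3.17%) and FXR-/- with age 5 (9.49%). Averaging probes gave 8 in SHP-/- at 3 weeks (12.1% of all genes). Arrays of one age gave 2 in SHP-/- (7.81% of all genes) and 2 for non-additivity (7.58%) at 3 weeks. They gave 5 in FXR-/- at 5 weeks (18.9%). The replicate block gave 2 for the FXR-/- age difference (9.39% of all genes). Leaving out 1 array gave 5 to 8 for FXR-/-, 1 to 2 for SHP-/- and 4 to 19 for the double knockout at 3 weeks, 1 to 2, 1 to 2 and 1 to 3 at 5 weeks, 2 to 12 and 4 to 17 for double against FXR-/- and SHP-/- at 3 weeks and 2 to 5 and 1 to 4 at 5 weeks, 2 to 6 and 1 to 3 for non-additivity, 1 to 2, 0 to 2 and 1 to 16 for the age differences, and 4 to 10, 2 to 7, 1 to 1 and 2 to 18 for age in wild type, FXR-/-, SHP-/- and double knockout. For fits that left out 1 array, shares of all genes called are not given, so these ranges have no background beside them. The causes were not tested. The wild-type age median stayed below 0 in all 10 settings (-0.27 to -0.17).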
